A study of Mus musculus with 12 samples.

Results

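A set of 1960 cJun peaks lay outside the promoter mark H3K4me3 and had no AP-1 site at the merged summit. Each replicate's summit is its base of highest signal, and the merged one was in most peaks the mean of the replicates' positions. They made up 39.5% of the 4960 cJun peaks that CUT&RUN gave in DMSO-treated Min6 cells, a mouse insulinoma line with features of β cells. In CUT&RUN an antibody guides a nuclease to the protein on chromatin, and the DNA it frees is sequenced. A peak was selected on 2 readouts of the same cells. It shared no base with a peak of the H3K4me3 list, and the reference sequence within 100 bp of its merged summit held neither TGACTCA nor TGAGTCA, which are the same AP-1 site read on either strand. Of the other peaks, 351 outside H3K4me3 held the site in that window and are called AP-1 peaks here, and 2649 overlapped H3K4me3. Cells were given 20 µM SP600125, which inhibits JNK, the kinases of cJun (this arm is named JNKi), or the solvent DMSO, for 48 hours. Antibodies against cJun or H3K4me3 and a non-specific IgG were each used in both treatments, with 550000 cells per reaction, which gave 6 groups of 2 biological replicates and 12 samples in all. The values below come from 4 peak lists, those of cJun and of H3K4me3 in DMSO and in JNKi. Each list keeps peaks called in both replicates, so that a count per list has no replicate error. The study's methods state the same sequencing depth for every sample. Read totals were not analysed here, so that the depth reached by each library is unknown. The Wilson intervals given with shares (95%, over peaks) include counting error alone. As a check of the cell line, H3K4me3 covered a start site of 7 of 8 β cell markers, all but Ins1, and of 1 of 8 markers of other cells, the α cell hormone gene Gcg.

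cJun is a basic leucine zipper protein that binds DNA as a dimer. With Fos or Jun partners it prefers the AP-1 site, and with ATF2 it can bind the cyclic AMP response element (CRE), while other factors can hold it at DNA that has neither sequence. Peaks away from H3K4me3 include enhancers, where AP-1 often sits beside the factors of the cell type, in β cells those with basic helix-loop-helix, homeodomain, forkhead, MAF and RFX domains.

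AP-1 sites were common in these peaks beyond the window at the merged summit, which held none by the choice of members. A stretch of 61 bases is printed for the 8 highest-ranked members with unrepeated sequence and a site centred 98 to 200 bp from the summit. They were chosen after this pattern had been seen and are shown because the site, in capitals, lies beside the summit in each. Ranks run over all 4960 peaks by the −log10 p of the weaker replicate. Coordinates and sequences are those of GRCm38, plus strand.
Rank 31, chr19:44709109-44709169: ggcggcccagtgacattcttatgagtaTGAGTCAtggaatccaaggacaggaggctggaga
Rank 44, chr4:59454216-59454276: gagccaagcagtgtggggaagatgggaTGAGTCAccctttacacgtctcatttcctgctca
Rank 56, chr15:87597212-87597272: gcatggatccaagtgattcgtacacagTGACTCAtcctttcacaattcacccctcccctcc
Rank 57, chr1:182908530-182908590: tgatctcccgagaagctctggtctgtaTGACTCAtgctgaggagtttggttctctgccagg
Rank 66, chr3:120786861-120786921: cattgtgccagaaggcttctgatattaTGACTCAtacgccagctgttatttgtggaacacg
Rank 84, chr1:165075740-165075800: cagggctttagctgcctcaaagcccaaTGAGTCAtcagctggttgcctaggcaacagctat
Rank 86, chr1:10257404-10257464: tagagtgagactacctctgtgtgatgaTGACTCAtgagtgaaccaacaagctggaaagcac
Rank 92, chr2:118540979-118541039: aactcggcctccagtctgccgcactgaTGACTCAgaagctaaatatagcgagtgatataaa

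The 8 sites were centred 118 to 171 bp from the merged summit. At rank 31, an intergenic peak with a −log10 p of 34.9 in the first replicate and 32.3 in the second, the site lay 153 bp from the summit of the first replicate and 148 bp from that of the second. At rank 92, in an intron 6501 bp from a start site of Bmf, which encodes a BH3-only protein of the apoptosis pathway, the values were 22.2 and 29.3, and the distances were 149 and 141 bp. All 8 peaks were overlapped by a cJun peak of JNKi-treated cells, as were 31 of the 33 members among the 100 highest peaks, with or without such a site. In each of the 8 both replicates placed the summit to the same side of the site.

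Across all members, 568 (29.0%, 27 to 31.0) had a site centred 98 to 200 bp from the merged summit and 277 (14.1%, 12.7 to 15.7) had one beyond 200 and up to 300 bp. A site lay inside the peak in 708 (36.1%, 34 to 38.3), and 868 (44.3%, 42.1 to 46.5) had none within 1000 bp. By comparison, 3.12% of the 12732868 consecutive tiles of chromosomes 1 to 19 and X, each as long as a summit window, held a site. The tiles are near in length to the stretch at 98 to 200 bp, and not to whole peaks or to 1000 bp on each side. A site at 98 to 200 bp was also present in 17.9% (14.3 to 22.3) of AP-1 peaks and 10.7% (9.56 to 11.9) of peaks at H3K4me3. The absence of AP-1 in members therefore holds for the window at the merged summit and not for the whole of every peak. The density in members was highest at 140 to 159 bp, with 2.32 sites per kb of sequence, against 0.201 per kb at 1000 to 2000 bp. Measured from the summit of each replicate, it was 1.93 per kb in the first and 1.94 in the second at the same distance.

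**Figure D1:**
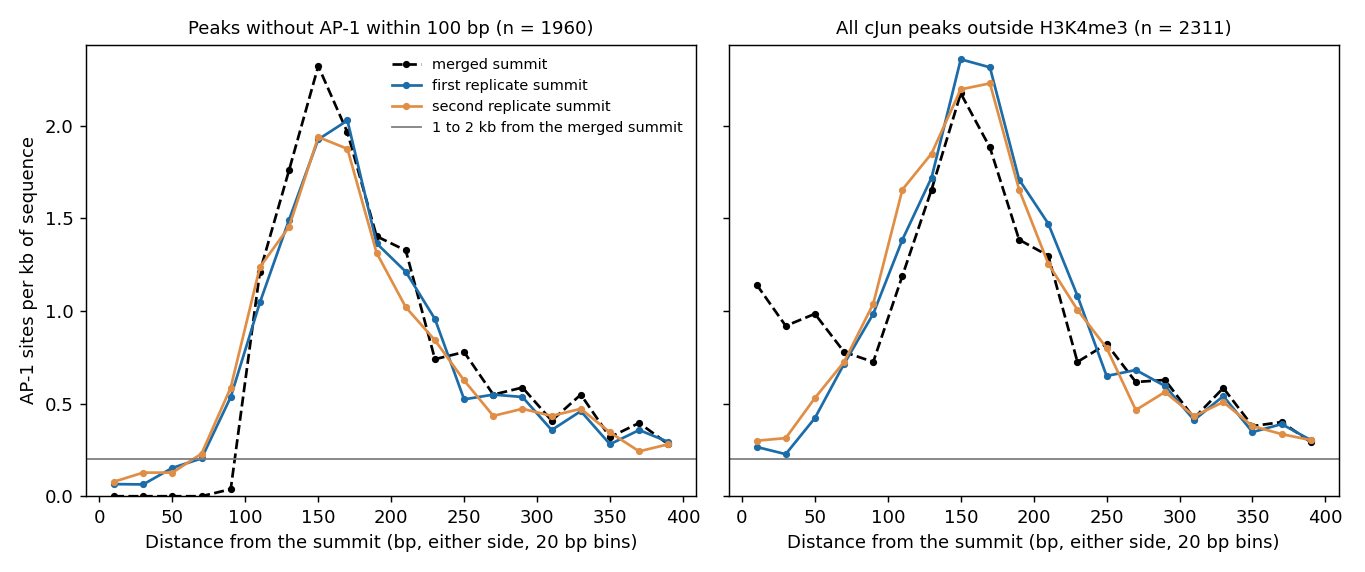
AP-1 sites per kb of sequence by distance from the summit (20 bp bins, either side), for the 1960 members (left) and all 2311 cJun peaks outside H3K4me3 (right). Lines stand for the merged summit and for the summits of the first and second replicate, and the grey line is the density at 1 to 2 kb. The empty bins of the merged line on the left are set by the choice of members, whereas on the right the density by replicate summits is 0.266 and 0.300 per kb at 0 to 19 bp and 2.36 and 2.2 at 140 to 159 bp.

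A gap at the centre was also present without the choice by AP-1. In all 2311 cJun peaks outside H3K4me3, AP-1 peaks included, the summits of the first replicate had 0.266 sites per kb within 19 bp and 2.36 at 140 to 159 bp. The second replicate had 0.300 and 2.2 sites per kb. The merged summit of the same peaks had 1.14 sites per kb within 19 bp. The deposited merged summit was the mean of the replicates' summits, within 1 bp, in 92.7% of the DMSO cJun peaks.

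The replicates' summits fell on the same side of the site in members and mostly on opposite sides in AP-1 peaks. Of the 568 members with a site at 98 to 200 bp, 537 (94.5%) had both summits on 1 side, at median distances of 152 and 148 bp, and the summits lay a median of 37 bp apart. Of the 351 AP-1 peaks, 233 (66.4%) had a summit on each side, at median distances of 131 and 124 bp, with a median of 264 bp between the summits. An AP-1 site lay within 100 bp of the summit of at least 1 replicate in 206 AP-1 peaks (58.7%, 53.5 to 63.7) and in 144 members (7.35%, 6.27 to 8.59). These counts follow in part from the choice of members by the merged summit and are given as a description.

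Sites beside the summit were more frequent in high-ranked members. Their share was 49.4% (42.0 to 56.8) of the 172 members in the top decile of the list, 25.2% of 206 in the 5th decile and 20.1% (15 to 26.5) of 184 in the lowest decile. Members just outside the searched window, with the nearest site centred 98 to 110 bp away, numbered 52 and had a median −log10 p of 7.24. The 41 AP-1 peaks just inside it, at 85 to 97 bp, had a median of 6.85. At the other limit, 11 members had an H3K4me3 peak within 200 bp, with a median −log10 p of 4.95, and 42 peaks without AP-1 overlapped H3K4me3 by at most 200 bp, with a median of 7.49.

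Members were of middle rank in the list. Their median −log10 p was 5.85, at percentile 48.7, and their median width was 655 bp. In the first replicate the −log10 p had a lower quartile of 5.51, a median of 7.61 and an upper quartile of 10.8, and in the second these were 5.28, 7.13 and 10.2. Across members the replicates' values had a Spearman's rho of 0.357, over peaks that share the same 2 libraries. The irreproducible discovery rate (IDR) used here is the estimated share of irreproducible peaks among those at least as reproducible as the given peak. A value of at most 0.05 was reached by 156 members (7.96%), 31 AP-1 peaks (8.83%) and 258 peaks at H3K4me3 (9.74%). The 100 highest cJun peaks included 33 members. No test was made of these values, since the list chose the members.

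**Figure D2:**
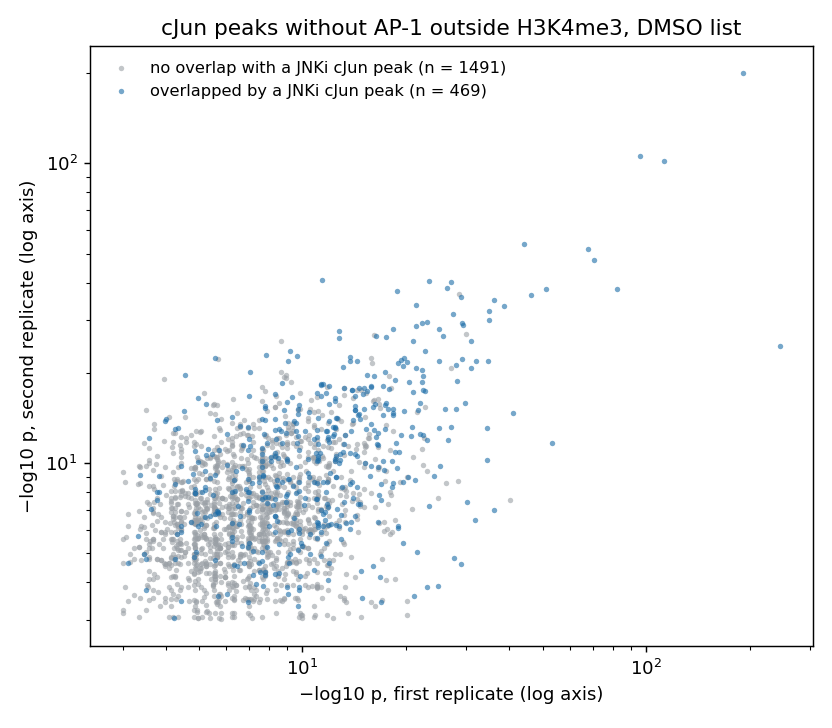
Each point is 1 of the 1960 members, placed by its −log10 p in the first replicate (x) and the second (y), both on log axes. The 469 members overlapped by a JNKi cJun peak (blue) include the highest members and the 1491 others (grey) lie mostly at the lower left, with the highest point at 191 and 199.8.

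The highest members lay near the end of chromosome X and on chromosome Y. Rank 1 spanned chrX:170011651-170012463, at the promoter of Gm21887, with a −log10 p of 191 in the first replicate and 199.8 in the second. Every 32-base word of its summit window occurred elsewhere in the reference, at a median of 51.5 places. Rank 2 (chrY:90788680-90789039) and rank 12 (chrY:90787888-90788141) lay in Gm47283, with values of 113 and 102 for the former and 70.5 and 47.7 for the latter. Rank 4 spanned chrX:170003984-170005954 in an intron of Mid1, which encodes a microtubule-associated ubiquitin ligase, with 96.0 and 106. In these 4 windows, 54.7% to 100% of the 32-base words were repeated. Repeats were counted on 32-base words, and whether reads from several copies could be told apart was not tested.

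The highest members with sequence found at 1 place only were rank 10 and rank 16. Rank 10 (chr8:126536677-126537804) was intergenic, 56745 bp from the nearest start site of a protein-coding gene, Irf2bp2, a transcriptional corepressor, and had a −log10 p of 67.8 in the first replicate and 51.6 in the second. Rank 16 (chr13:101232905-101234285) lay 1468 bp from a start site of the non-coding gene 5930438M14Rik, with 44.1 and 53.7. The replicates' summits were 24 bp apart in the former and 8 bp in the latter. Their summit windows are printed as the strongest binding at unrepeated sequence without AP-1, and neither peak had an AP-1 site within 1000 bp. No letter is in capitals, since none of the 8 motifs set apart below was found in either.
Rank 10, chr8:126537258-126537458: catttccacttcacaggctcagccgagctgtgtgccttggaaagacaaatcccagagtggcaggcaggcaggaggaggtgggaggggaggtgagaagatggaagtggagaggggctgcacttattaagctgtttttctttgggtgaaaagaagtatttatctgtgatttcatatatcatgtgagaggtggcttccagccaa
Rank 16, chr13:101233672-101233872: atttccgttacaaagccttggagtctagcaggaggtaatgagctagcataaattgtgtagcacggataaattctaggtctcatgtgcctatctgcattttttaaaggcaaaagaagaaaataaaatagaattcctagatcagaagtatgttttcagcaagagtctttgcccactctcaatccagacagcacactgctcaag

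The members were mostly distant from promoters. By the position of the midpoint, 881 (44.9%, 42.8 to 47.2) lay in introns, 807 (41.2%, 39.0 to 43.4) were intergenic, 228 (11.6%, 10.3 to 13.1) were within 3 kb of a transcription start site and 44 (2.24%) were in exons. The same shares in AP-1 peaks were 43.3%, 44.2%, 11.4% and 1.14%, each with an interval that overlaps that of the members. Among peaks at H3K4me3, 68.3% were promoter peaks. The median distance to a start site was 19026 bp in members and 596 bp in peaks at H3K4me3, a difference tied to the choice of members by a promoter mark. The nearest H3K4me3 peak was a median of 41433 bp away, and 52 members had one within 1000 bp.

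**Figure D3:**
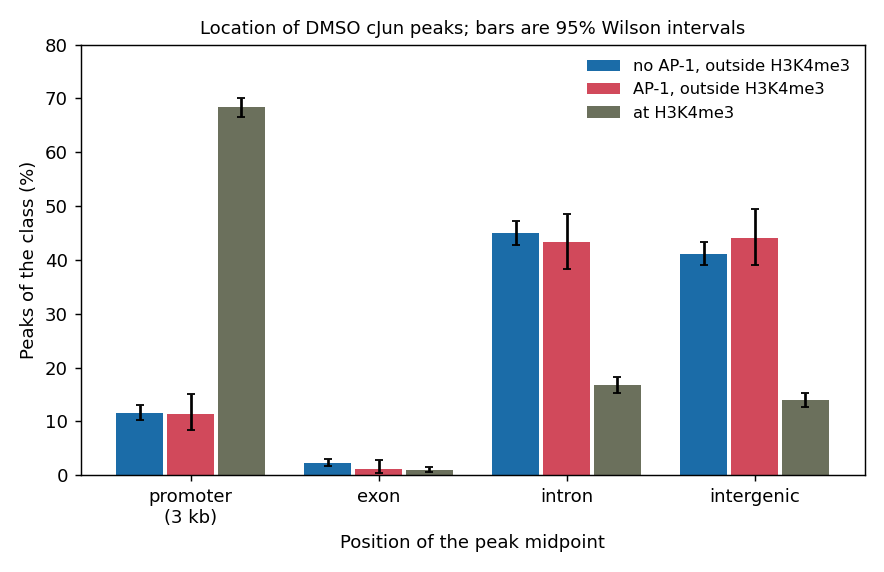
Share of peaks (%) by the position of the midpoint, for members (n = 1960), AP-1 peaks outside H3K4me3 (n = 351) and peaks at H3K4me3 (n = 2649), with 95% Wilson intervals. Members and AP-1 peaks have similar bars, with 44.9% and 43.3% in introns, while 68.3% of peaks at H3K4me3 are at promoters.

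Members were unevenly spread over chromosomes, as was the whole cJun list, which had 406 peaks on chromosome 4, 125 on chromosome 16 and 79 on X. Per 10 Mb of sequence, unknown bases included, chromosome 4 held the most, at 11.4, and among chromosomes 1 to 19 chromosome 16 held the fewest, at 4.58. Chromosomes X and Y held 2.05 and 1.53, with 35 and 14 members. On Y, 14 of the 15 cJun peaks were members.

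Within 100 bp of the summit, other motifs were compared with the genome tiles on both strands. Of 24 motifs, 8 had a share in members of at least 1.5 times that of the tiles. Of these 8, 6 also did so within 50 bp of the summit and in the whole peak, where CAGATG and the partial RFX site fell below 1.5 while CTCF and the SP and KLF motif passed it, and the ETS site passed it within 50 bp. The E-box CAGCTG, a target of basic helix-loop-helix proteins, occurred in 323 members (16.5%, 14.9 to 18.2) and in 7.26% of tiles, a ratio of 2.27. The E-box CAGATG, bound by NeuroD1 with E proteins, occurred in 455 (23.2%, 21.4 to 25.1), a ratio of 1.54. Either E-box was present in 707 members (36.1%). The palindromic CRE, TGACGTCA, occurred in 8 members (0.408%, 0.207 to 0.803) and 0.108% of tiles, a ratio of 3.79, and the partial CRE TGACGC in 51 (2.60%), a ratio of 2.66. The partial MAF site TGCTGAC occurred in 4.85%, the forkhead site TGTTTAC in 5% and the partial RFX site GTTGCCA in 3.06% of members, at ratios of 1.78, 1.67 and 1.68. Among the 156 members with an IDR of at most 0.05, the ratio was 1.18 for the partial MAF site, 1.28 for the forkhead site and 1.23 for CAGATG. The full HNF1 site had the highest ratio, 90.9, on 2 members only. Words of a few bases also depend on base composition, and the median GC content was 46.8% in members against a mean of 41.8% in tiles.

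Against windows 2 kb to either side of the members, with a mean GC content of 45.1%, the ratio was 1.70 for CAGCTG, 1.46 for CAGATG, 3.20 for the CRE and 2.22 for the partial CRE. AP-1 peaks, which share the distance from H3K4me3, had CAGCTG in 18.5% (14.8 to 22.9) and CAGATG in 24.5% (20.3 to 29.3) of windows. At H3K4me3, CAGCTG was present in 13.4% (12.2 to 14.8) and CAGATG in 13.3% (12.1 to 14.7). The CRE was present in 1.42% (0.610 to 3.29) of AP-1 peaks and 1.02% (0.701 to 1.48) of peaks at H3K4me3, and the partial CRE in 3.42% (1.97 to 5.88) and 5.44% (4.64 to 6.37). These shares were above those of members, and only for the partial CRE at H3K4me3 were the intervals apart. The SP and KLF motif GGGGCGGGG occurred in 0.510% of members and 5.81% of peaks at H3K4me3. Against the windows 2 kb away, its ratio in members was 0.952, and that of CTCF was 0.889.

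The other 16 motifs had ratios below 1.5. The homeodomain core TAATTA, recognised by Pdx1 and Nkx6-1 among others, occurred in 7.55% (6.46 to 8.81) of members and 7.24% of tiles. The ATF4 and C/EBP composite TGATGCAA occurred in 0.714% and 0.622%. The AP-1 variant with A or T in the centre, TGAATCA on either strand, was present in 84 members (4.29%, 3.47 to 5.28) and 2.94% of tiles, a ratio of 1.46. Against windows 2 kb to either side its ratio was 1.63, and it also passed 1.5 times the tiles among members with no repeated 32-base word. The NFI and NRF1 motifs were found in 0 of 1960 members, which allows a share of up to 0.196% by the Wilson interval. The ratio to the tiles was 1.19 for the C/EBP site TTGCNNAA, 1.06 for the TEAD site CATTCCA, 1.02 for the NFY and GATA sites ATTGGCT and AGATAAG, 0.959 for the RUNX site TGTGGTT and for SRF, and 0.855 for the NKX2 site CACTTAA. It was 1.38 for CTCF, 1.25 for the ETS site CCGGAAGT (3 members) and 0.480 for the YY1 site AAGATGGCG (2 members). In all, 882 members (45.0%) held at least 1 of the 8 motifs and 699 (35.7%) held none of the 24.

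**Figure D4:**
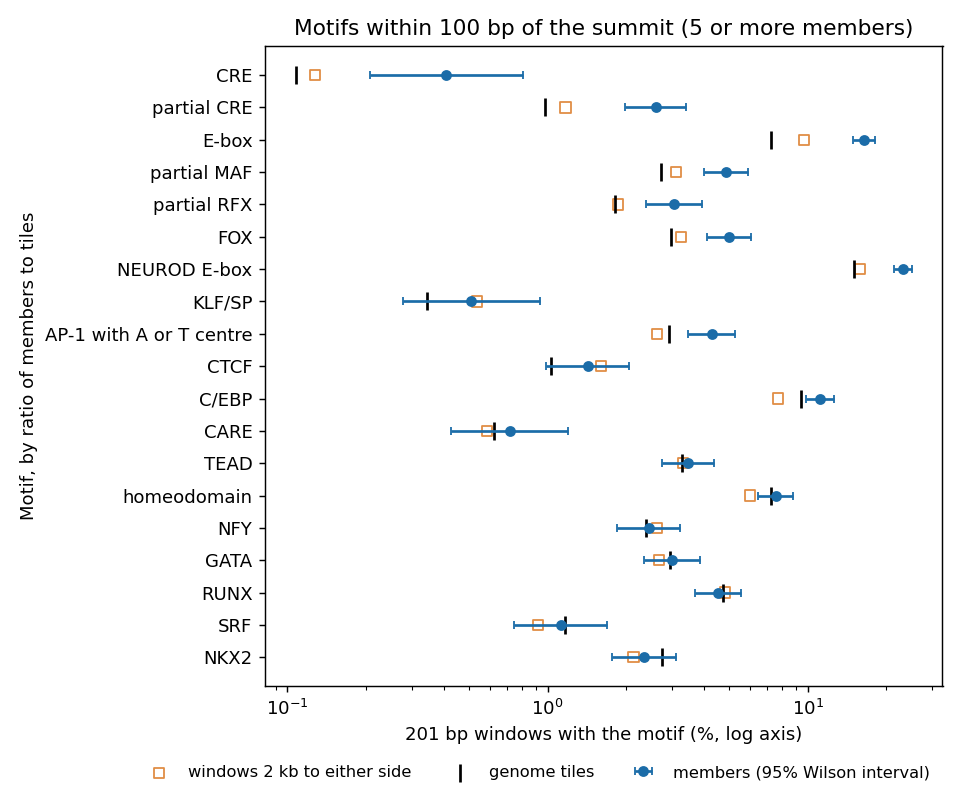
Share of summit windows with each motif (%, log axis) for motifs found in at least 5 members, ordered by the ratio of members to genome tiles. Filled points are members with 95% Wilson intervals, open squares are windows 2 kb to either side and vertical marks are genome tiles. The CRE, the partial CRE and the E-box CAGCTG lie farthest to the right of their tiles, at 3.79, 2.66 and 2.27 times the tile share.

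The CRE was also more frequent beside the summit than at it. In the sequence beyond 100 and up to 200 bp from the summit it occurred in 21 members (1.07%), 9.94 times the share of the tiles, in a stretch of similar length. All 8-base words were also counted. Among words in at least 1% of members, CAGCTGCC had the highest ratio to the tiles, 3.41, in 62 members (3.16%). Of the 20 words with the highest ratios, 4 held CAGCTG and 4 held TAAT or its complement ATTA, such as CCCATTAG with a ratio of 3.40. All 20 were found in a larger share of members than of windows 2 kb away.

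The windows below belong to the highest members with unrepeated sequence that carry a motif of the set, in capitals. They show the CRE with a partial RFX site (rank 257), a partial MAF site, a partial CRE and a forkhead site (rank 207), CAGATG (rank 41) and CAGCTG (rank 64).
Rank 257, chr8:87234128-87234328: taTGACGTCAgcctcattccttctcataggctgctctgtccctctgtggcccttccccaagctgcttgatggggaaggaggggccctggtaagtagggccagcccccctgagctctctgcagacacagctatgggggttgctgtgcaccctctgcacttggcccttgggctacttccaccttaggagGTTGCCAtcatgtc
Rank 207, chr13:45088835-45089035: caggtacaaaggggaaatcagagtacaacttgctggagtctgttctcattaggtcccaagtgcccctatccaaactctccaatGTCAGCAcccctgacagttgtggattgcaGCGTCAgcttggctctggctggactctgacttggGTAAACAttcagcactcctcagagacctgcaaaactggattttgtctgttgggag
Rank 41, chr11:72951927-72952127: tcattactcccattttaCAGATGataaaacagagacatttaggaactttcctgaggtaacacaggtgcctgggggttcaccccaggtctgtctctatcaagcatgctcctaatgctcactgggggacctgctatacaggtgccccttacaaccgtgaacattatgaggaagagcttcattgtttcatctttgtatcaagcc
Rank 64, chr8:120295426-120295626: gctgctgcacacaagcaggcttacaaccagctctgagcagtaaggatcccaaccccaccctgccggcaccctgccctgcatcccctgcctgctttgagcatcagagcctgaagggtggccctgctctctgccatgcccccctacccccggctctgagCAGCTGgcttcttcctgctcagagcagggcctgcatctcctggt

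Rank 257 spanned chr8:87233685-87234554 in an intron of Gm27169, with a −log10 p of 15.3 in the first replicate and 17.1 in the second, and its nearest AP-1 site was 313 bp from the summit. Rank 207 (chr13:45088294-45089236) was intergenic, with 16.6 and 16.3, and had an AP-1 site 145 bp from the summit. Neither was overlapped by a JNKi cJun peak. Rank 41 (chr11:72951342-72952933) lay 969 bp from a start site of Gm44467, which places it among the promoter members, and 9031 bp from one of the protein-coding gene Atp2a3, which encodes the calcium pump SERCA3, with 29.2 in the first replicate and 29.3 in the second. Rank 64 (chr8:120295024-120296234) lay in an intron of Gse1, with 25.6 and 26.5. Both were overlapped in JNKi. The highest member with the partial RFX site was rank 137 (chr17:26621008-26622089), 100 bp from a start site of Ergic1, a protein that cycles between endoplasmic reticulum and Golgi. It was outside H3K4me3 in DMSO and overlapped an H3K4me3 peak in JNKi. The highest with the HNF1 site was rank 1415, in an intron of Psd3.

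Few members lay in repeated sequence, and the shares in the other cJun peaks were lower. In 28 members (1.43%, 0.990 to 2.06) at least 50% of the 32-base words of the summit window occurred at 2 or more places, against 14.9% of 12733 tiles sampled along the genome. At least 1 repeated word was present in 159 members (8.11%) and 36.6% of tiles. Soft-masked bases, which mark repeats in the reference, filled at least 50% of the window in 78 members (3.98%), 28.1% of tiles and 19.6% of windows 2 kb away. By their methods, the authors removed unmapped reads, secondary alignments and reads of low Phred score. The part of these filters in the shares was not tested. Tandem repeats of 1 to 6 bp units over at least 24 bp were found in 46 members (2.35%) and 4.96% of tiles. Of these 46, 31 repeated the unit AC, and the longest run was 59 bp. Windows with at least 50% repeated words made up 0.570% of AP-1 peaks and 0.906% of peaks at H3K4me3. Soft-masked windows made up 2.56% and 1.70% (1.27 to 2.27), and tandem repeats 1.14% and 1.17% (0.826 to 1.66). Among these shares, only the soft-masked and tandem ones at H3K4me3 had intervals apart from those of members (3.20 to 4.94 and 1.76 to 3.12).

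The repeated members were placed high in the list and clustered. Of the 28, 12 lay on Y and 5 on X, and 10 were in the top decile, and their median percentile was 83.6. Gm47283, on Y, held 11 members, the most of any gene, with ranks from 2 to 3514. Asic2, which encodes an acid-sensing ion channel, and Ralgapa2, which encodes a subunit of a Ral GTPase-activating complex, held 8 each over 1088289 and 272466 bp. In all, 655 protein-coding genes held at least 1 member midpoint and 148 held at least 2.

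Genes of 3 lists were then examined for members inside the gene or within 50 kb. Of 21768 protein-coding genes outside Y, 8.63% had a member in this window and 28.4% had any DMSO cJun peak. Among 30 β cell genes, 19 had any DMSO cJun peak and 12 (40%, 24.6 to 57.7) had a member, with 16 distinct members. Of these 16, 6 were retained, that is overlapped by a JNKi cJun peak, beside 23.9% of all members, and the difference was not tested. The list was chosen with earlier results of these data known, and its genes can differ from others in length and in the density of start sites, which was not tested. Abcc8 and Kcnj11, which encode the subunits of the ATP-sensitive potassium channel of β cells, lie side by side and shared 4 members. The highest of these (chr7:46130754-46132355) ranked 311, with a −log10 p of 14.2 in the first replicate and 16.8 in the second. It lay in an intron of Abcc8 with an AP-1 site 135 bp from the summit, and it was retained.

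Genes of hormone processing and secretion followed at lower ranks. Iapp, which encodes amylin, had a member 7803 bp upstream at rank 1949, with 13.0 and 6.72, that was overlapped by the JNKi peak of rank 75. Glp1r, the receptor for glucagon-like peptide 1, had 2 members, the higher at rank 1079 with 19.5 in the first replicate and 8.67 in the second. Slc30a8, which encodes the zinc transporter of insulin granules, had 1 intronic member at rank 2958, and Slc2a2, which encodes a glucose transporter, had 2, the higher at rank 2026. A member was retained at each of these 4 genes. Those at Glp1r, Slc2a2 and Slc30a8 were overlapped by JNKi peaks of ranks 1545, 884 and 1223 in a list of 1632. The IDR of these JNKi peaks was 0.672, 0.397 and 0.468, against 0.00692 for the JNKi peak at Iapp. In DMSO the IDR was 0.384 at Iapp, 0.180 at Glp1r, 0.480 at Slc30a8 and 0.412 at Slc2a2, each above the IDR limit used here. Members near Pcsk1 and Pcsk2, the prohormone convertases, and near G6pc2, a glucose-6-phosphatase of β cells, were not retained. Of the β cell transcription factors, Foxa2 had a member at rank 168 (chr2:147993000-147993748), 49128 bp beyond its 3′ end, with 18 and 17.8, and Pax6 and Insm1 had 1 each at ranks 4229 and 4257. None of these 3 was retained.

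Among 18 genes of AP-1 and JNK signalling, 12 had any DMSO cJun peak and 4 (22.2%, 9 to 45.2) had a member. Jun, which encodes cJun itself, had 1 of its 4 peaks among the members, at rank 3008 and 25024 bp beyond the gene, with 8.85 in the first replicate and 5.37 in the second. Atf3, a stress-induced partner of cJun, had 2, the higher 1735 bp from a start site at rank 1327, with 15.8 and 7.97 and an AP-1 site 149 bp from its summit. Jund had 1 and Mapk10, which encodes the kinase JNK3, had 2. None of these 6 members was retained, and all 6 had a rank of 1327 or lower in the list, where retention was lower in all members too (29.0% in the third decile and 9.78% in the lowest). The difference from that background was not tested. Of the 3 genes of cholecystokinin signalling, Cckar, which encodes a receptor of the hormone, had a member 19995 bp upstream at rank 2461, and Cck and Cckbr had no member, although each of the 3 had 1 DMSO cJun peak in this window.

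The last comparison asked which members were kept after JNK inhibition. Of the 1960 members, 469 (23.9%, 22.1 to 25.9) were overlapped by at least 1 bp of a JNKi cJun peak, a share close to the 23.6% of the whole list. The JNKi list, with 1632 peaks, was shorter, which limits these shares, and the 1491 others are called lost in the sense of these lists only. Since a peak is not a replicate of the treatment, the 5 tests below describe the lists and not the inhibitor. The odds ratio of retention for members against the 351 AP-1 peaks, of which 27.9% (23.5 to 32.8) were retained, was 0.812 (95% interval 0.629 to 1.05, p = 0.121 by Fisher's exact test, two-sided, and 0.202 after Benjamini-Hochberg adjustment over 5 tests). When the site was searched within 200 bp of the summit, 21.4% of 1403 peaks without it and 29.4% of 908 with it were retained, and the odds ratio was 0.653 (adjusted p = 4.03e-05, Fisher's exact test). When it was searched at the replicates' own summits, it was 1.09 (adjusted p = 0.544, Fisher's exact test). At 50% reciprocal overlap the shares were 17.2% and 24.2% (odds ratio 0.650, adjusted p = 0.00453, Fisher's exact test), and among peaks with an IDR of at most 0.05 they were 78.8% and 71.0%. Against peaks at H3K4me3, with 22.7% (21.2 to 24.4) retained, it was 1.07 (0.932 to 1.23, p = 0.341 and adjusted p = 0.426 by Fisher's exact test), and among peaks with an IDR of at most 0.05, 78.8% of 156 members and 61.2% of 258 such peaks were retained (odds ratio 2.36, adjusted p = 0.000526 by Fisher's exact test). The direction was the opposite when AP-1 was searched in the whole peak, with 18.2% of 1255 peaks without it retained (odds ratio 0.755, adjusted p = 0.00272 by Fisher's exact test).

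Members with an AP-1 site elsewhere in the peak were retained more often. The share was 34% (30.6 to 37.6) of 708 members with a site and 18.2% (16.2 to 20.4) of 1252 without (odds ratio 2.32, 95% interval 1.88 to 2.86, adjusted p = 3.99e-14 by Fisher's exact test). Members with a site were also wider, with medians of 763.5 and 596 bp, and ranked higher, with median percentiles of 61.3 and 41.2. Stratified by deciles of width, the Mantel-Haenszel odds ratio was 1.81 (chi-square test, adjusted p = 4.27e-06), and by deciles of rank it was 1.52 (adjusted p = 0.00306). Within width classes the shares were 16.7% and 10.9% under 500 bp, 25.3% and 14.4% from 500 bp to under 1000 bp, and 58.9% and 44.4% from 1000 bp. For a site at 98 to 200 bp against none within 200 bp, retention was 81.2% (71.6 to 88.1) and 73.6% (63.4 to 81.7) in the top decile of the list. In deciles 6 to 10 it was 9.76% (6.4 to 14.6) and 13.0% (10.8 to 15.5). Among members with an IDR of at most 0.05, the odds ratio for a site elsewhere in the peak was 2.2 and did not pass the threshold (83.8% of 99 and 70.2% of 57, adjusted p = 0.164 by Fisher's exact test).

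**Figure D5:**
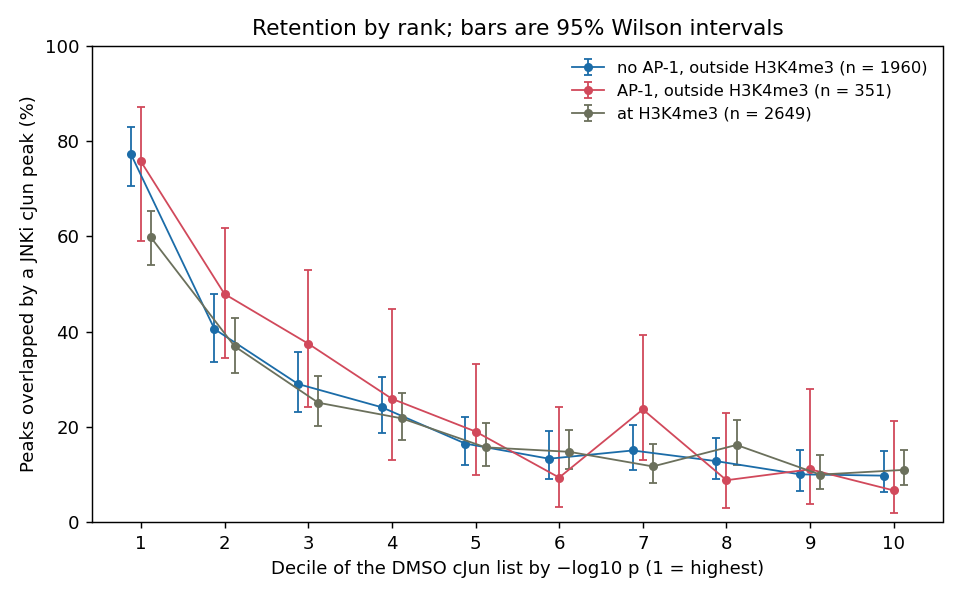
Share of DMSO cJun peaks overlapped by a JNKi cJun peak (%) in deciles of the list by −log10 p (1 is the highest), with 95% Wilson intervals. Members (blue) fall from 77.3% to 9.78%, and their intervals overlap those of AP-1 peaks (red) in every decile. Peaks at H3K4me3 (olive) start at 59.8% and end at 11%.

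Retention varied more with rank than between the classes. In the top decile, 77.3% (70.5 to 82.9) of 172 members, 75.8% (59.0 to 87.2) of 33 AP-1 peaks and 59.8% (54.1 to 65.3) of 291 peaks at H3K4me3 were retained. In the lowest decile the shares were 9.78%, 6.67% and 11%. Retained members had a median percentile of 75.5 in the DMSO list and 945 bp of width, and lost members 41.9 and 615 bp. Of the 33 members among the 100 highest peaks, 31 were retained. The retained members took middle positions in the JNKi list, with a median percentile of 52.4, and 74 of them met an IDR of at most 0.05 there. The summits lay at most 200 bp apart in 356 of the 469 (75.9%).

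Repeated members were retained in 14 of 28 cases (50%, 32.6 to 67.4), against 23.6% (21.7 to 25.5) of the 1932 others (odds ratio 3.25, 95% interval 1.54 to 6.86, adjusted p = 0.0068 by Fisher's exact test). Over deciles of rank the Mantel-Haenszel odds ratio was 1.45 (chi-square test, adjusted p = 0.458), which did not pass the threshold. The call was also lost at 50% reciprocal overlap (odds ratio 2.32, adjusted p = 0.109, Fisher's exact test), with 24-base words (2.12, adjusted p = 0.0703, Fisher's exact test) and with any repeated 32-base word (1.33, adjusted p = 0.242, Fisher's exact test), and among members with an IDR of at most 0.05 the odds ratio was 0.696 (adjusted p = 0.701, Fisher's exact test). Promoter members were retained in 25.9% (20.6 to 31.9) and the others in 23.7% (21.7 to 25.7), and the odds ratio was 1.13 (0.820 to 1.54, adjusted p = 0.458 by Fisher's exact test).

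The JNKi peaks that overlapped retained members also had AP-1 sites beside the summit. The 469 retained members met 464 JNKi peaks, and the summits of these had an AP-1 site centred at 98 to 200 bp in 36% (31.8 to 40.5) by the first replicate and 31.7% (27.6 to 36) by the second. Within 97 bp the shares were 8.84% and 10.6%. In DMSO, the same retained members had a site at 98 to 200 bp in 35.2% and 35.4% by the replicates' summits. Within 97 bp the DMSO shares were lower than those in JNKi, at 2.56% (1.47 to 4.42) and 4.26% (2.78 to 6.49), where the choice of members by the DMSO summits keeps sites out. These JNKi peaks were reached through members chosen by AP-1 at the DMSO summits, so their shares are not independent of that choice. The peaks are the same places in the genome, so the letters around them were shared.

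The highest members of unrepeated sequence that were lost in JNKi ranked 116, 167, 168 and 207. Rank 116 (chr9:75955043-75955634) lay in an intron of Gm26903 with a forkhead site, a −log10 p of 27 in the first replicate and 20.8 in the second, and an AP-1 site 178 bp from the summit. Rank 167 (chr9:58977937-58979684) lay in Neo1, which encodes the netrin receptor neogenin, 440 bp from a start site of Gm47271, with 17.9 and 19.5. Rank 168 was the peak beyond Foxa2 and rank 207 the intergenic peak printed above. The 4 highest that were retained were ranks 10, 16, 24 and 25, and JNKi peaks of ranks 4, 8, 182 and 116 overlapped them. Rank 26, an intronic peak of 2563 bp in Gng12, a G protein subunit gene, was overlapped by a JNKi peak of 38.0 in the first replicate and 4.47 in the second, which ranked 1249. The highest exonic member of unrepeated sequence, rank 171 in Synrg, was retained, as was the highest exonic member of all, rank 93.

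H3K4me3 was absent from the members in DMSO by their choice, and in JNKi 88 (4.49%) overlapped an H3K4me3 peak. Among the 351 AP-1 peaks, also outside H3K4me3 in DMSO, the share was similar, with 18 (5.13%). Whether the mark differed between the treatments was not tested. Of these 88 members, 37 (42.0%, 32.3 to 52.5) were retained, against 23.1% (21.2 to 25) of the 1872 others. Their median percentiles were 53.9 and 48.3. No test was planned for this pair of values.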

How the data were processed

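CUT&RUN peak lists from 12 samples in 6 groups of 2 biological replicates were grouped by their labels. Per the labels and the study's methods, the authors trimmed reads with Trimmomatic, aligned them to GRCm38 with Bowtie2 2.4.2, filtered them with SAMtools 1.16, called narrow peaks with MACS2 2.2.7.1 against IgG and paired replicates with the irreproducible discovery rate (IDR), whose settings are not given in the sources used here. The 4 deposited lists have 20 columns. Each merged peak's −log10 p-value, as deposited, is the lower of its replicates' values, and the lowest was just above 3 in each list. The methods name default MACS2 settings, which apply a threshold on the q-value, whereas this shared floor is on the p-value, so the 4960 cJun peaks cannot be taken as those of the default. The deposited score and the IDR, also given as −log10 by the authors, were used only for thresholds. The IgG libraries, reads and coverage were not analysed here.

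GRCm38 gave the sequence, and GENCODE vM21 basic gave the gene models, with 77198 start sites. An AP-1 site counted as within 100 bp when all of its bases did, so that its centre lay at most 97 bp away. Motif shares were set beside 201 bp tiles, and for wider or narrower windows the tile share was scaled to the length searched. Retention meant 1 bp of overlap and was tested with two-sided Fisher's exact tests, with Benjamini-Hochberg adjustment over 5 tests. Named peaks were the 6 highest members, the 4 highest unrepeated ones retained and lost, the highest unrepeated one per location and per motif at 1.5 times the tiles, the highest member per listed gene, and the 3 genes with most members. Members and lists were chosen with earlier results of these data known, and the distance of AP-1 from the summit was examined after seeing the data. No sequence of chromosome 18 is printed, and members there were passed over for the next in rank. Strata by rank or width were compared with the Mantel-Haenszel chi-square test. Overlap, motif, repeat and test steps were tested on simulated data. Alternatives covered IDR, chromosomes, overlap, rank and width strata, windows, repeats and promoter distance. Tools were matplotlib 3.10.9, statsmodels 0.14.6, SciPy 1.17.1, numba 0.67.0, pandas 2.3.3 and numpy 2.4.6, run in Python 3.11.15.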

Additional observations from a re-analysis of the deposited data

How the results depend on the processing

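Across 20 results, 115 alternative values were computed, of which 82 kept their side of the threshold or their range, 17 moved, 5 were weaker, 4 were stronger and 7 reversed. For the changes below the cause was not tested, apart from what fewer peaks or a wider search bring by construction. At an IDR of at most 0.05, 156 members remained, the odds ratio of retention was 1.52 against AP-1 peaks, 2.36 against peaks at H3K4me3, 0.696 for repeated sequence and 2.2 for AP-1 elsewhere in the peak, 5 motifs reached 1.5 times the tiles, of which 4 were among the 8 above and the other was CTCF, the HNF1 ratio was 0, and 7.05% of members were repeated. With AP-1 searched within 200 bp of the summit, the odds ratios against AP-1 peaks and peaks at H3K4me3 were 0.653 and 0.925. With AP-1 searched in the whole peak they were 0.470 and 0.755, both past the threshold, with 1255 members. At the replicates' own summits, an alternative chosen after seeing the data, the former was 1.09. At 50% reciprocal overlap the odds ratio was 0.650 against AP-1 peaks and 2.32 for repeated sequence. Stratified by width, the odds ratio against peaks at H3K4me3 was 0.989. For repeated sequence it was 1.45 stratified by rank, 2.12 with 24-mers and 1.33 with any repeated 32-mer, and the call was lost in each of these 3 and at 50% reciprocal overlap. The repeated share was 2.19% with 24-mers and 0.357% at 10 or more places, and the promoter share was 4.18% at 1 kb. Retention by AP-1 elsewhere kept its direction in each of its alternatives and missed the threshold in that limited by IDR, whereas the comparison with AP-1 peaks changed direction or call with the window.

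No paired analysis was possible because each list combines both replicates and their columns carry no numbers. For the same reason, no list without 1 of the replicates was made. Ranked by the first or the second replicate alone, members had a median percentile of 47.3 and 49.6. The depth reached by each library is unknown, which limits any comparison of the cJun lists.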
